A study of Notophthalmus viridescens with 3 samples.

Results

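The miRNAs miR-143, miR-145, miR-126 and miR-126b were followed in newt hearts (Notophthalmus viridescens) through regeneration. They were taken as every experimental probe on the array whose name, without its species prefix and without a star, is miR-143, miR-145, miR-126, miR-126a or miR-126b. This gave 4 of 1242 miRNA names, read by 8 of 1365 miRNA probes, and no probe was named miR-126a. The arrays hold RNA of whole adult hearts, with 1 sample for each of 3 states: uninjured, 7 days after injury (7 dpi) and 21 days after injury (21 dpi). How many animals each sample pools is not given in the labels, and no transgene, drug or strain is named. Each sample was read on 1 array, so there is no biological replicate, no p-value is given, and every ± is technical spread over the 3 spots of a probe.

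MicroRNAs are short RNAs that lower the output of messenger RNAs, chiefly through pairing of their seed, bases 2 to 8, with a site in the target. In mice and humans, miR-143 and miR-145 are cut from a shared transcript and are abundant in the smooth muscle of vessel walls, where they favour the contractile over the dividing state. In mice, zebrafish and humans, miR-126 is cut from an intron of the gene EGFL7 and is abundant in endothelial cells, where it supports vessel growth and integrity. These roles are known from other species, and the cell source of each miRNA in the newt heart was not measured here. In whole-heart RNA, fewer cells of a type and less RNA per cell cannot be told apart.

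The sequences below are the target sequences that the probes were made to capture, 5′ to 3′, and are shown because the probes of a name overlap almost fully. Capitals mark the seed.
hsa-miR-143: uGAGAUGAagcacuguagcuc
xtr-miR-143: uGAGAUGAagcacuguagcucg
hsa-miR-145: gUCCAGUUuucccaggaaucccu
xtr-miR-145: gUCCAGUUuucccaggaaucccuu
dre-miR-145: gUCCAGUUuucccaggaauccc
hsa-miR-126: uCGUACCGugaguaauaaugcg
xtr-miR-126: uCGUACCGugaguaauaaugc
dre-miR-126b: uCGUACCGugaguaauagugca

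The prefixes stand for human (hsa), the frog Xenopus tropicalis (xtr) and zebrafish (dre). The 2 probes of miR-143, the 3 probes of miR-145 and the 2 probes of miR-126 differ within a name only in the last 1 or 2 bases at the 3′ end, so they read much the same molecules and are not independent measurements. The zebrafish miR-126b target has the seed of miR-126 and, counted from the 5′ end, carries the substitutions A18G and G22A relative to the human miR-126 target. The sequence of each newt miRNA was not used here, so mismatches between it and these probes are unknown. No other probe on the array has one of these 3 seeds.

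On the 3 arrays, 186, 184 and 147 miRNA names were detected in the uninjured, 7 dpi and 21 dpi hearts, and 138 on all of them. Detection required the middle one of 3 spots to lie above percentile 95 of an array's 587 empty spots, a minimum of 73.8, 77.5 and 103 intensity units in the uninjured, 7 dpi and 21 dpi hearts. The empty spots had medians of 68.0, 71.7 and 71.4, which were subtracted wherever signal above the empty spots is given. Across the 138 names the median log2 ratio of signal above the empty spots was -1.38 for 7 dpi over uninjured and 0.39 for 21 dpi over uninjured. For the 14 detected probes of 5S rRNA these ratios were -0.09 and 0.35, and for 12 spike-in probes they were 0.30 and 1.24. At 7 dpi neither set of control probes shifted with the miRNAs. At 21 dpi the 5S rRNA ratio was close to that of the miRNAs, and the spike-in ratio was not. The files class these 12 as spike-in calibration controls, but they were picked within that class by their names, which the files do not define, and spike-in values below carry that doubt. Quantile normalization set the median log2 difference of the 138 names to -0.08 and 0.00, and normalized differences below are relative to that shift.

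miR-143 was dim on all 3 arrays and highest at 21 dpi. The human probe read 92.8, 92.7 and 103 in the uninjured sample, 77.4, 79.8 and 83.0 at 7 dpi, and 159, 141 and 141 at 21 dpi. The frog probe read 93.7, 98.7 and 102 in the uninjured sample, 85.1, 84.3 and 83.0 at 7 dpi, and 172, 142 and 142 at 21 dpi. No spot of either probe at 21 dpi was as dim as any spot on the other arrays. At 7 dpi the spots were the dimmest, and 2 of 3 spots of the human probe and 3 of 3 of the frog probe passed the detection minimum. Signal above the empty spots averaged 8.41 ± 2.84 at 7 dpi for the human probe (SD of 3 spots), beside an SD of 7.66 among the empty spots of that array, so its 7 dpi level is close to the floor of the measurement. The empty spots spread more widely at 21 dpi, with an SD of 25.4, against 6.10 on the uninjured array. Signal above them at 21 dpi averaged 75.8 for the human probe and 80.7 for the frog probe.

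miR-145 had the same order of levels as miR-143, with 21 dpi highest and 7 dpi lowest. The human probe read 166, 185 and 179 in the uninjured sample, 97.2, 98.4 and 113 at 7 dpi, and 384, 342 and 313 at 21 dpi. The zebrafish probe read 149, 180 and 186 in the uninjured sample, 94.3, 96.9 and 106 at 7 dpi, and 307, 265 and 249 at 21 dpi. For both of these probes the spots of the 3 arrays did not overlap, before normalization. The frog probe read 167, 155 and 172 in the uninjured sample, 104, 110 and 110 at 7 dpi, and 302, 279 and 104 at 21 dpi. Its last spot at 21 dpi stood apart from the other two and at the level of the 7 dpi array, and the values of this probe are given below with the median of spots as well.

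miR-126 was bright on all 3 arrays, and lowest at 7 dpi before normalization. The human probe read 3017, 2848 and 3304 in the uninjured sample, 1059, 939 and 901 at 7 dpi, and 2642, 2916 and 3003 at 21 dpi. The frog probe read 2570.0, 2614 and 2888 in the uninjured sample, 807, 709 and 696 at 7 dpi, and 2565, 2638 and 2336 at 21 dpi. The spots of the uninjured and 21 dpi arrays overlapped for both probes, and those of the 7 dpi array lay below them. Unlike miR-143 and miR-145, miR-126 was no brighter at 21 dpi than in the uninjured heart.

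The zebrafish miR-126b probe was detected in the uninjured and 21 dpi hearts and not at 7 dpi. It read 122, 112 and 141 in the uninjured sample, 68.2, 71.4 and 68.8 at 7 dpi, and 131, 113 and 125 at 21 dpi. The 7 dpi spots lay below the median of the empty spots of their array, while the spots of the other arrays overlapped each other. Whether this probe reads a newt miR-126b or captures miR-126 despite the substitutions was not tested.

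**Figure D1:**
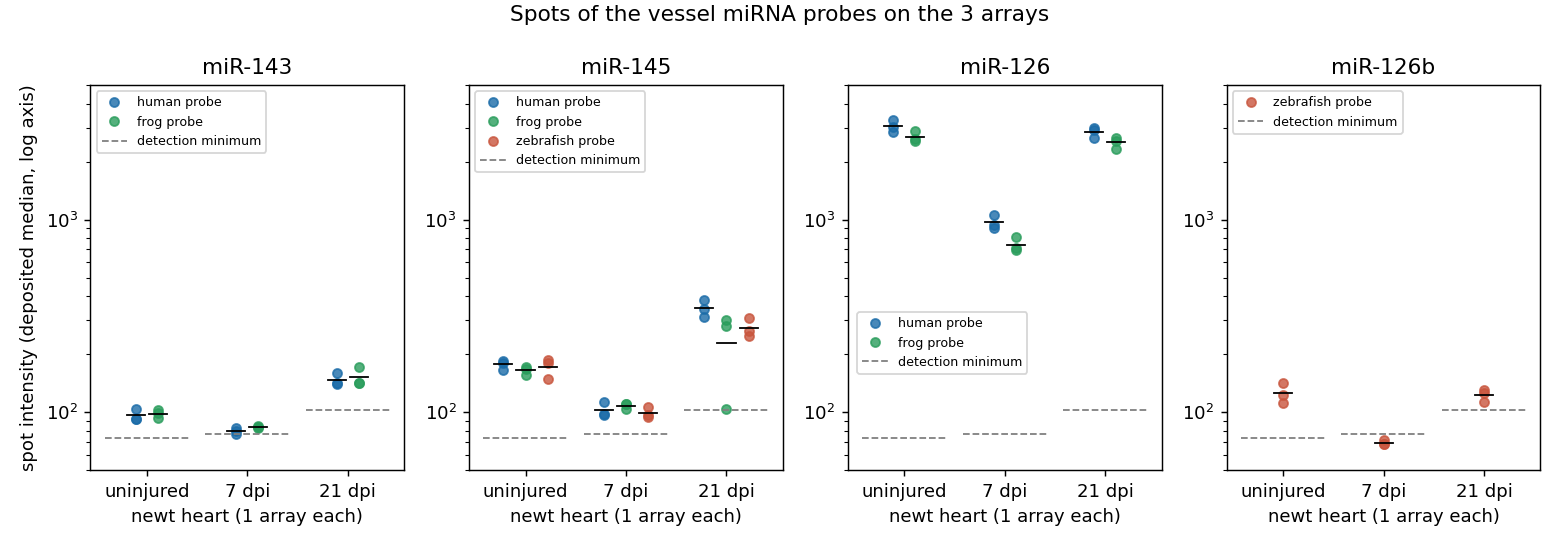
Deposited spot intensity (log axis) of the 8 probes on the uninjured, 7 dpi and 21 dpi arrays, with each spot as a point, the mean of 3 spots as a black bar and the detection minimum of each array as a dashed line. miR-143 and miR-145 are brightest at 21 dpi apart from 1 dim spot of the frog miR-145 probe, the miR-126 spots of the uninjured and 21 dpi hearts overlap, and miR-126b falls under the minimum at 7 dpi.

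At 7 dpi against the uninjured heart, none of the 8 probes was called different. A difference was called where the normalized log2 difference was at least 1 in size, either of the arrays compared detected the probe, and the spots did not overlap. Of 212 names tested, 10.4% were called by this rule, 8.49% higher and 1.89% lower at 7 dpi. The human probe of miR-145 had a normalized log2 level of 6.82 at 7 dpi and 7.49 in the uninjured heart, a difference of -0.67 ± 0.09 (standard error over 3 spots on each array), and its spots did not overlap. The zebrafish and frog probes of miR-145 stood at -0.66 ± 0.12 and -0.44 ± 0.06. The human and frog probes of miR-143 stood at -0.26 ± 0.06 and -0.23 ± 0.04. For miR-126 the human probe stood at -0.17 ± 0.09 with overlapping spots, and the frog probe at -0.49 ± 0.09. All 8 probes had a negative difference, but the 7 dpi array was dimmer as a whole, and the sign of miR-143 depends on how that is scaled, while miR-145 and miR-126 stayed negative under every alternative run. With the median of the shared miRNAs made equal between arrays, miR-143 stood at 0.23, miR-145 at -0.14 and miR-126 at -0.45. With arrays scaled to 5S rRNA, miR-126 stood at -1.64 and miR-145 at -0.86. The median of the 4 names, each read through its brightest probe, was -0.45, beside -0.04 over the 212 names tested. It counts miR-126b at -0.98, whose 7 dpi signal was not detected. Dim names as a whole were also lower. The median was -0.21 over the 46 dimmest of the 138 names detected on all arrays, which include miR-143 and miR-145. For miR-126b, not detected at 7 dpi, the quantile-normalized level in the uninjured heart was at least 1.68-fold that at 7 dpi. This was taken against the lowest detected level of the 7 dpi array and holds on that scale alone. Fitted log2 differences were smaller in size than that bound under some settings and larger under the others. The smaller ones were -0.69 with cyclic loess, -0.72 after subtraction of the empty spots and -0.59 with the shared miRNAs. Past 2-fold in this comparison were miR-145 at -1.21 after subtraction of the empty spots and at -1.14 with spike-in scaling. miR-126 was also past 2-fold, at -1.67 with no normalization, -1.64 with 5S rRNA and -1.98 with spike-in scaling. The fitted value of miR-126b ran from -3.18 in the authors' values, -1.66 with an offset of 16 and -1.24 with spike-ins to -0.59 with the shared miRNAs, and is no measure of size, since its 7 dpi signal was under the detection minimum.

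At 21 dpi against the uninjured heart, no probe was called either, where 2.63% of 190 names were called, 1.05% higher and 1.58% lower. The human and frog probes of miR-143 stood at 0.39 ± 0.08 and 0.35 ± 0.10, with no overlap between the spots of the arrays. The human probe of miR-145 stood at 0.45 ± 0.10, also without overlap. The zebrafish and frog probes of miR-145 stood at 0.20 ± 0.14 and -0.05 ± 0.50, with overlap on the normalized scale. For the frog probe, the log2 ratio of signal above the empty spots was 0.70 with its dim spot and 1.07 from the median of its spots. The human and frog probes of miR-126 stood at -0.25 ± 0.08 and -0.34 ± 0.07 without overlap, and miR-126b at -0.21 ± 0.12 with overlap. The offset of 50 intensity units added before the log scale compresses the differences of dim probes. In signal above the empty spots, the human probe of miR-145 averaged 275 at 21 dpi and 109 in the uninjured heart, 2.52-fold. The frog probe of miR-143 averaged 80.7 at 21 dpi and 30.2 in the uninjured heart, 2.67-fold, and the human probe of miR-126 averaged 2782 at 21 dpi and 2988 in the uninjured heart, 0.931-fold. With arrays scaled to the spike-in probes, miR-143 and miR-145 stood at 0.012 and 0.053 and miR-126 at -1.28, past 2-fold.

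Between the injured hearts, miR-145 was the 1 of 4 names called at 21 dpi against 7 dpi, in a comparison where 11.9% of 193 names were called, 3.11% higher and 8.81% lower. Its human probe had a normalized log2 level of 7.94 at 21 dpi and 6.82 at 7 dpi, a difference of 1.12 ± 0.11. The call is lost with cyclic loess, at 0.76, and, at 0.75, with the shared miRNAs' median made equal between arrays. The zebrafish probe stood at 0.86 ± 0.11 and the frog probe at 0.39 ± 0.50, both short of 2-fold. In signal above the empty spots the human probe averaged 275 at 21 dpi and 31.1 at 7 dpi, a ratio of 8.86, or 3.15 on the log2 scale. On that scale 0 of the 137 other names detected on all arrays, each read through its brightest probe, had a higher ratio. By the normalized difference, 5 of them stood above miR-145. These ranks leave out names not detected at 7 dpi, which could have had higher ratios. Left out in this way was miR-126b, with averages above the empty spots of 51.7 at 21 dpi and -2.21 at 7 dpi. The zebrafish probe of miR-145 had a log2 ratio above the empty spots of 2.88. Its frog probe had 2.12, or 2.45 from the median of spots. For miR-92a these values were 2.64 and 2.11, so which of them is higher depends on how the spots are combined. The human probe of miR-143, close to the floor at 7 dpi and not the brightest of its name, had a ratio of 9.01. The median log2 ratio of the 138 names above the empty spots was 1.73. miR-143 stood at 0.58 ± 0.09 by the frog probe and 0.66 ± 0.07 by the human probe. miR-126 stood at -0.08 ± 0.09 by the human probe and 0.15 ± 0.09 by the frog probe, with overlapping spots. The human miR-126 probe stood instead at 1.58 with no normalization, 1.24 with 5S rRNA and 0.70 with spike-ins, so its direction between the injured hearts depends on the scaling. The quantile-normalized level of miR-126b at 21 dpi was at least 1.45-fold that at 7 dpi, a bound that holds on that scale alone. Its fitted log2 difference was smaller than that bound with cyclic loess, at 0.43, and with the shared miRNAs, at 0.40. After subtraction of the empty spots it was 0.29, also smaller.

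**Figure D2:**
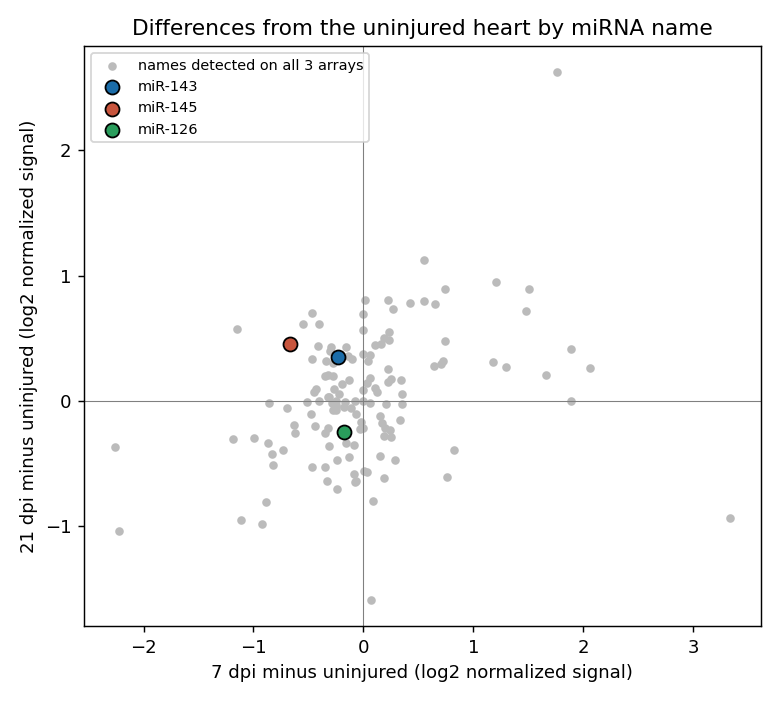
Normalized log2 difference of each of the 138 names detected on all 3 arrays, for 7 dpi minus uninjured (horizontal) and 21 dpi minus uninjured (vertical), both of which use the same uninjured array. miR-145 lies at -0.67 and 0.45 and miR-143 at -0.23 and 0.35, in the upper left of the plot, and miR-126 lies at -0.17 and -0.25.

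miR-143, miR-145 and miR-126 were also compared within each array, since a factor common to all probes of an array leaves their ratio as it is. At 21 dpi the ratio of miR-145 to miR-126, in signal above the empty spots of the brightest probes, was 2.71 times that of the uninjured heart, and the ratio of miR-143 to miR-126 was 2.87 times. Every pairing of a miR-143 or miR-145 probe with a miR-126 probe, 10 in all, gave a higher ratio at 21 dpi, by 1.74 to 2.87-fold. The lowest of these used the frog miR-145 probe with its dim spot. The 10 pairings reuse the same arrays and probes of nearly the same sequence, so they are not independent. With the median of spots the lowest change was 0.82 on the log2 scale and the highest 1.55. On the normalized scale the difference between the miRNAs at 21 dpi was 0.70 ± 0.13 for miR-145 and 0.59 ± 0.13 for miR-143, both minus miR-126 and by the brightest probes. Over the 10 pairings this difference ran from 0.20, with the frog miR-145 probe, to 0.79.

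At 7 dpi these ratios did not part in a common direction. Of the 10 pairings, 7 gave a higher ratio to miR-126 at 7 dpi than in the uninjured heart in signal above the empty spots, with log2 changes of -0.18 to 0.70, and 3 did on the normalized scale. The ratio of miR-145 to miR-143 at 21 dpi was 0.943 times that of the uninjured heart. Its normalized log2 change was 0.11 ± 0.14, which is smaller than its error. For 7 dpi against the uninjured heart the normalized change of miR-145 minus miR-143 was -0.43 ± 0.10, and it was 0.027 in the authors' processed values.

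Dim and bright names differed in this comparison as well. With the 138 names ordered by mean signal and split into 3 groups of 46, miR-143 and miR-145 fall in the dim group and miR-126 in the bright group. The median log2 ratio of signal above the empty spots for 21 dpi over uninjured was 0.96 in the dim group, 0.39 in the middle group and 0.24 in the bright group. By this ratio, 13 of the 46 dim names stood above miR-145 and 11 above miR-143. In the middle group 3 and 1 did, and in the bright group 1 and 1. The detection minimum lay 31.7 above the median of the empty spots at 21 dpi and 5.81 above it in the uninjured heart. A dim name thus entered the 138 only with a high enough 21 dpi signal, which can raise the ratios of the dim group. These medians and counts are therefore no measure of a trend with signal level. The part of signal level in the ratios to miR-126 was not tested.

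**Figure D3:**
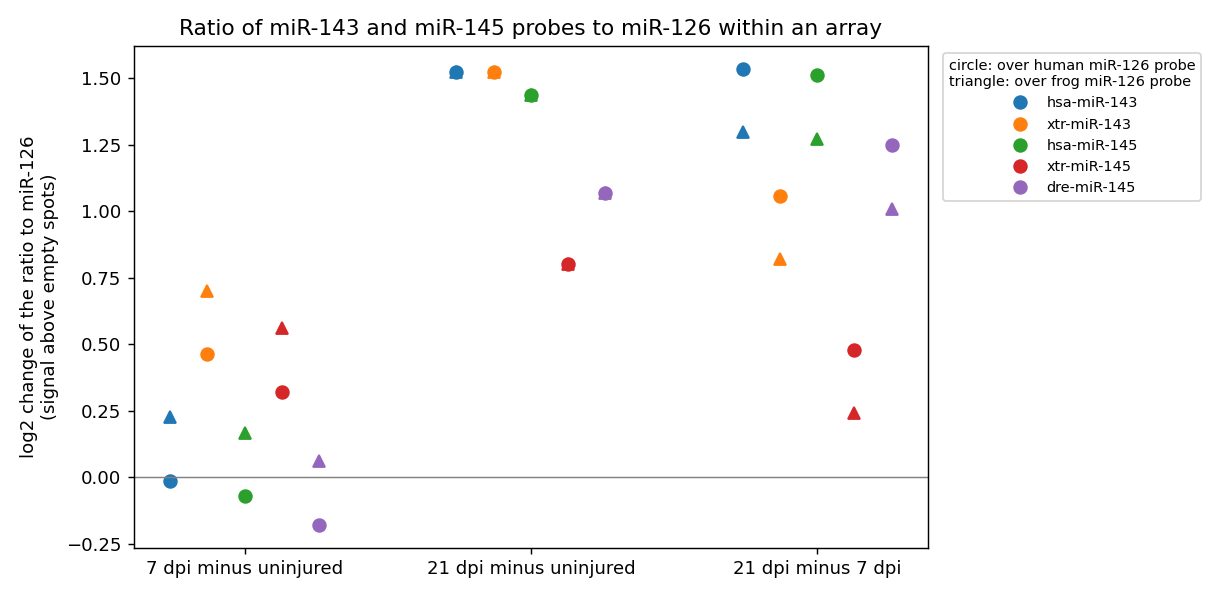
Log2 change, in each comparison, of the ratio of each miR-143 or miR-145 probe to the human (circles) or frog (triangles) miR-126 probe, from signal above the empty spots. For 21 dpi minus uninjured all 10 values lie between 0.80 and 1.52 and circles and triangles coincide, while for 7 dpi minus uninjured they run from -0.18 to 0.70.

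Other miRNAs linked to vessels in mammals or zebrafish were taken as a list of 15 names, among them miR-130a, miR-210, the pair miR-221 and miR-222, and the miR-23, miR-27 and miR-24 group. The list was chosen with earlier results of these data known. On all arrays 11 of the 15 were detected, and miR-218, miR-296-5p, miR-424 and miR-503 on none. At 7 dpi none of the 11 was called against the uninjured heart, and their median difference was 0.15, beside -0.04 over all names tested. At 21 dpi none was called against the uninjured heart, with a median of 0.09 beside -0.06. Between 21 and 7 dpi 1 of 11 was called, higher at 21 dpi. Of all names tested there, 11.9% were called in either direction and 3.11% were called higher. The called member of the list was miR-92a, of the miR-17/92 cluster, at 1.17 ± 0.52. Its spots read 571, 689 and 570 at 21 dpi, against 74.5, 187 and 212 at 7 dpi, so 1 spot at 7 dpi lay below the detection minimum and apart from the others.

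By the smallest distance between the pairs of differences against the uninjured heart, over 138 names and 3 samples, miR-181c, miR-29a and miR-20a lay nearest to miR-143, at distances of 0.02, 0.06 and 0.08 log2 units. Nearest to miR-145 were miR-125a-5p, miR-301a and miR-494, at 0.20, 0.23 and 0.25. Nearest to miR-126 were let-7c, miR-199a* and miR-99a, at 0.10, 0.14 and 0.14. By its brightest probe, miR-145 thus had no neighbour as close as those of the other members. The standard errors over spots of its 2 differences were 0.09 and 0.10. Its frog probe stood elsewhere, at -0.44 and -0.05, so the distances are those of 1 probe.

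Markers of other heart cells were read on the same arrays, as summed signal above the empty spots. Striated-muscle miRNAs, with 6 of 8 names detected on all arrays and miR-208 and miR-208a on none, summed to 27737, 8859 and 27696 in the uninjured, 7 dpi and 21 dpi hearts. Before normalization, the like sums at 21 dpi and without injury hold unlike members. miR-1 read 8256 at 21 dpi against 14357 in the uninjured heart. The other 5 read 1302 to 6208 at 21 dpi against 948 to 4025, each higher at 21 dpi. The median log2 ratio of the 138 names was 0.39 there, so the 21 dpi array was brighter as a whole. Normalized differences were 0.00 for miR-1 and 0.05 to 0.58 for the other 5, none of them called. Quantile normalization gives equal ranks equal values, so the 0.00 says only that miR-1 held the same rank on both arrays. Its log2 ratio of signal above the empty spots was -0.80, beside the 0.39 of the 138 names. Among the other 5, miR-499-5p, named after its values were seen, was called higher at 21 dpi than at 7 dpi, at 1.72. The zebrafish probe named miR-499 stood at 0.34 and was not called. Of all names tested, 3.11% were called higher there. Leukocyte miRNAs, with 3 of 5 detected on all arrays and miR-142-5p on none, summed to 147, 308 and 607, higher at 7 dpi although that array was dimmer. The 607 includes 62.45 from miR-142-3p, detected at 21 dpi alone. These sums are not normalized. On the normalized scale, 21 dpi minus 7 dpi was negative for 3 of the 4 leukocyte names tested. Their median was -0.45, beside -0.05 over all names tested, and miR-142-3p alone was positive, at 0.87. At 7 dpi against the uninjured heart, miR-155 at 1.51 and miR-223 at 1.48 were called higher, and miR-150 at 0.75 was not. Of all names tested, 8.49% were called higher in that comparison. Fibroblast miRNAs, 3 of 3 detected, summed to 2686, 885 and 3214. Erythroid miRNAs, of which miR-451 of 3 names on the array was detected on all arrays and miR-486-5p on none, summed to 3493, 1115 and 4089. The uninjured and 21 dpi sums include 16.5 and 41.45 from miR-144, which was not detected on all arrays. The part of these cells in the values of miR-143, miR-145 and miR-126 was not tested.

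The passenger strands of these hairpins gave little signal. The human-named probes of miR-126*, miR-143* and miR-145* were not detected on any array, and their mean spots lay below the median of the empty spots on all 3. The zebrafish probe named miR-126b* read 89.4, 90.4 and 101 in the uninjured sample, 67.6, 59.9 and 63.4 at 7 dpi, and 85.6, 73.0 and 79.8 at 21 dpi, and was detected in the uninjured heart alone. Its target is that of miR-126b without the first base:
dre-miR-126b*: cGUACCGUgaguaauagugca

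The capitals again mark bases 2 to 8, which are shifted by 1 base from the miR-126 seed. This probe therefore matches the same strand as the miR-126b probe rather than an opposite strand.

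**Figure D4:**
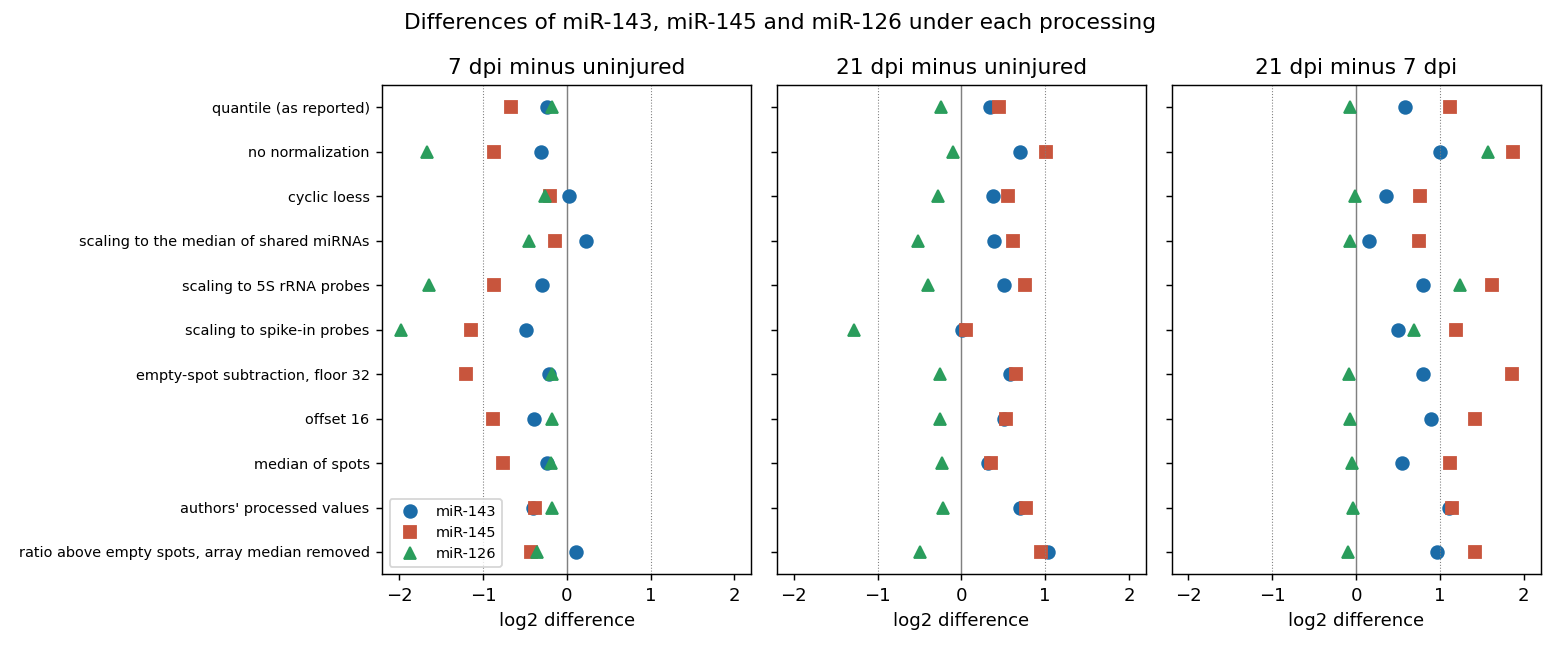
Log2 difference of miR-143 (frog probe), miR-145 (human probe) and miR-126 (human probe) in the 3 comparisons under each way of processing the arrays, with dotted lines at 2-fold. For 21 dpi minus uninjured, miR-126 is below 0 and miR-143 and miR-145 above 0 in all 11 rows, while values for 7 dpi minus uninjured spread from -1.98 to 0.23.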

How the data were processed

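Total RNA of newt hearts was labelled with Cy3 and hybridised by a service provider, per the labels' protocols, with 0.5 µg per assay. The deposited scanner files hold the median intensity of each of 5022 spots on a linear scale, 3 per miRNA probe, per the file headers, with no background column and no stated image software. The series text speaks of paired samples on arrays, but each file holds 1 channel and was treated as 1-colour. The authors' processed intensity, 1 value per probe, served as an alternative; the scaling behind it is not given in the sources used, and it is linear, with array medians of 1.49, 0.807 and 2.40 (uninjured, 7 dpi, 21 dpi).

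Here intensities were corrected with normexp on the foreground (limma 3.58.1, R 4.3.3), 50 was added, and log2 values were averaged over spots and quantile normalized over 1365 probes. The probe with the highest mean signal stands for a name: the frog probe for miR-143, human probes for miR-145 and miR-126. Members and lists were chosen with earlier results of these data known. The rule for named miRNAs took all probes and passenger strands, list members at least 2-fold apart, and the 3 names nearest in pattern. Calling was also tested on simulated arrays. Alternatives covered normalization, background, offset, spots, detection, threshold and the authors' values; scaling factors were applied before the offset. No depth exists for arrays, and 1 array per group limits the precision.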

Additional observations from a re-analysis of the deposited data

Results flagged for a closer look

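Both miR-143 probes and the human probe of miR-145 stood on opposite sides of the uninjured heart at the 2 times, with no overlap of spots in either comparison. The human miR-145 probe was at -0.67 at 7 dpi and 0.45 at 21 dpi. The human miR-143 probe was at -0.26 and 0.39, and the frog miR-143 probe at -0.23 and 0.35. The other miR-145 probes did not share this: at 21 dpi the zebrafish probe stood at 0.20 and the frog probe at -0.05, both with overlapping spots, after -0.66 and -0.44 at 7 dpi. Names outside this set had the same pair of signs, among them miR-181c at -0.25 and 0.33 and miR-125a-5p at -0.55 and 0.62. The signs are therefore not particular to these miRNAs. The share of all names with such signs and no overlap of spots was not counted, so how common the full pattern is remains unknown. Both comparisons share the uninjured array, each time is 1 sample, and the difference between the times was not tested. The negative values of miR-143 at 7 dpi depend on the scaling, as given in the next part.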

How the results depend on the processing

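Differences are log2 values of the brightest probe of a name, and values are in the order 7 dpi minus uninjured, 21 dpi minus uninjured and 21 dpi minus 7 dpi where 3 are given. With no normalization miR-143 stood at -0.30, 0.70 and 1.00, miR-145 at -0.87, 1.00 and 1.88, and miR-126 at -1.67, -0.10 and 1.58, and 83, 18 and 104 names were called, against 22, 5 and 23. Scaled to 5S rRNA, miR-145 stood at -0.86, 0.75 and 1.62, miR-126 at -1.64 at 7 dpi and 1.24 between the injured hearts, and miR-143 at 0.80 between them, with 83, 12 and 82 names called. Scaled to spike-in probes, miR-143 stood at -0.48 and 0.012 against the uninjured heart, miR-145 at -1.14 and 0.053, and miR-126 at -1.98, -1.28 and 0.70, with 98, 48 and 36 names called. Scaled to the median of shared miRNAs, miR-143 stood at 0.23 at 7 dpi and 0.15 between the injured hearts, miR-145 at -0.14 and 0.75, and miR-126 at -0.45 and -0.52 against the uninjured heart, with 13 names called at 21 dpi. With cyclic loess miR-143 stood at 0.025 at 7 dpi and 0.35 between the injured hearts, and miR-145 at -0.20 and 0.76, with 14 names called at 21 dpi. Calls split into 18 higher and 4 lower at 7 dpi against uninjured with quantile normalization, 6 and 77 with none, 7 and 76 with 5S rRNA, and 6 and 92 with spike-ins. At 21 dpi against uninjured the split was 2 higher and 3 lower, 17 and 1 with none, and 1 and 47 with spike-ins. At 21 dpi against 7 dpi it was 6 higher and 17 lower, 100 and 4 with none, 77 and 5 with 5S rRNA, 25 and 11 with spike-ins, 1 and 18 with cyclic loess, and 1 and 26 with shared miRNAs.

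After subtraction of the empty-spot median, floored at 32, miR-145 stood at -1.21, 0.65 and 1.86 and miR-143 at 0.58 at 21 dpi and 0.80 between the injured hearts, with 34, 17 and 42 names called. With an offset of 16, miR-143 stood at -0.39 at 7 dpi and 0.90 between the injured hearts, and miR-145 at -0.88 and 1.42, with 39, 12 and 37 names called. In the authors' values miR-143 stood at -0.40, 0.70 and 1.10 and miR-145 at -0.38 and 0.77 against the uninjured heart, with 70, 35 and 59 names called. A threshold of 1.5-fold called 52, 30 and 47. In ratios above the empty spots less the array median, an alternative added after seeing the data, miR-143 stood at 0.11, 1.03 and 0.97, miR-145 at -0.43, 0.95 and 1.42, and miR-126 at -0.36 and -0.49 against the uninjured heart.

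The change of miR-145 minus miR-143 at 7 dpi against the uninjured heart was -0.23 with cyclic loess, -0.66 with spike-in scaling, -0.99 with the floor and 0.027 in the authors' values. Between the injured hearts it was 0.88 with no normalization, 0.81 with 5S rRNA, 1.06 with the floor and 0.046 in the authors' values. At 21 dpi, miR-145 minus miR-126, a result added after seeing the data, was 1.10 with no normalization, 1.13 with shared miRNAs, 1.15 with 5S rRNA, 1.33 with spike-ins, 0.99 in the authors' values and 1.44 in ratios above the empty spots. For miR-143 minus miR-126 the values were 0.90 with shared miRNAs and with 5S rRNA, 1.29 with spike-ins, 0.84 with the floor, 0.92 in the authors' values and 1.52 in ratios above the empty spots. Both stayed positive under all 10 alternatives, which are not all separate checks of the sign. No normalization and scaling to shared miRNAs, 5S rRNA or spike-ins differ from each other only by 1 factor per array. That factor enters these differences only through the offset. The call of miR-145 between the injured hearts kept a size of at least 1 in 8 of 10. miR-126b stood between -0.65 with spike-ins and 0.036 with no normalization for 21 dpi minus uninjured. The cause of these shifts was not tested. No paired analysis was possible because each group has 1 sample, which also leaves no replicate to take out and no slide block. Dim probes such as miR-143 at 7 dpi lie near the empty spots, which limits what their values can show.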
